A study of Mus musculus with 12 samples.

Results

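Circadian clock genes were followed in cultured mouse prostate stem cells of the C57Bl/6 strain on Illumina bead arrays, on which the brightness of a probe reports the abundance of a transcript. The set held 10 genes, Clock, Npas2, Per1, Per2, Per3, Cry1, Cry2, Nr1d1, Nr1d2 and Dbp, and its members were all 19 probes among 45135 whose annotated gene symbol was one of these. The cultures were spheroids of mouse 1 (cells grown as balls), an adherent layer of mouse 2 and an adherent layer of mouse 1, each with 3 replicate arrays and 1 further array of their pooled RNA, 12 arrays in all. No genotype change or drug treatment is named in the labels for any group, and animal age, medium composition and the hour of harvest are not given in the sources used here. Spheroids were sampled from 1 mouse only, and no label says whether replicates were separate cultures. Each p-value therefore reflects the spread among these arrays alone, which could be technical.

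The mammalian clock is a feedback loop of transcription. CLOCK, or its relative NPAS2, pairs with BMAL1 (the product of Arntl) on E-box DNA and switches on the Per and Cry genes, whose proteins return to the nucleus and repress that pair. The same activators drive the Rev-erb receptors, encoded by Nr1d1 and Nr1d2, which repress Arntl, and Dbp, a factor that passes the rhythm on to genes with D-box elements. Per1 is also known as a rapid target of cAMP signalling and of glucocorticoid hormones. In bulk samples like these a level averages over all cells, so fewer cells with a transcript and less of it per cell cannot be told apart.

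Promoter sequence is shown for the 2 members that rose in spheroids, Per1 and Nr1d1, because each holds a clock-type element. The windows run from 250 bases before to 50 after the annotated start in RefSeq (build GRCm38.p6), at chr11:69098699-69098998 on the plus strand for Per1 and at chr11:98775328-98775627 on the minus strand for Nr1d1. Capitals mark the E-box CACGTG in Per1, at -166 from the start, and in Nr1d1 at -28 the E-prime box, whose letters CACGTT read AACGTG on the strand shown.
Per1: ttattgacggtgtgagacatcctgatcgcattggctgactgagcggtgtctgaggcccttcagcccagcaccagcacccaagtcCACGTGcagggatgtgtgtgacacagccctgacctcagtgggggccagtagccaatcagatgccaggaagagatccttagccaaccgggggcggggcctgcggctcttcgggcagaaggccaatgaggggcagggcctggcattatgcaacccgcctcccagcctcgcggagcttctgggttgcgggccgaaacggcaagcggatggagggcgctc
Nr1d1: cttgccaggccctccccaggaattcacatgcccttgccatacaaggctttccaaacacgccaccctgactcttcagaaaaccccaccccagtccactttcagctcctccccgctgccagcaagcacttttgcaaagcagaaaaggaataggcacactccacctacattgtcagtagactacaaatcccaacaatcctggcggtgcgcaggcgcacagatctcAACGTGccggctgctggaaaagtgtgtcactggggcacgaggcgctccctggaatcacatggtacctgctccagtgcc
Both strands were searched in the 12 windows that RefSeq gave for 9 of the 10 members, and no 2 matches overlapped. Per1 had a second window, at a later start, with none of these motifs. The E-box was also present in Cry1 at -60, the E-prime box in Cry1 at -79 and Cry2 at -166, and the D-box (TTATGTAA or TTACGTAA) in Per3 at -205 and -158. No window held the core of the site that Rev-erb and ROR receptors share (TAGGTCA or TGGGTCA), the cAMP response element TGACGTCA, or the palindromic glucocorticoid response element. Of all 32851 windows of this length, 7.15% held the E-box, 4.68% the E-prime box, 1.06% the D-box, 6.45% the receptor core, 1.79% the cAMP element and 0.475% the glucocorticoid element. A match is a description of these letters and was not measured as a binding site.

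A probe counted as detected on an array where its deposited detection p-value was under 0.05, and a gene was tested where all 3 replicates of any 1 culture detected a probe of it. This held for 8 of the 10 genes and 11 of the 19 probes, within 10112 genes tested, each represented by its brightest passing probe. Values below are background-corrected, quantile-normalized log2 signals with an offset of 16, a scale that understates changes of dim genes. A gene was called where limma's Benjamini-Hochberg adjusted p over all tested genes was under 0.05 and the fold was at least 2. Differences are given with their standard error from the fit to 9 replicate arrays.

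The arrays detected 44.9 to 49.1% of probes in spheroids, 43.1 to 44.8% in adherent mouse 2 and 44.4 to 47.7% in adherent mouse 1. The brightest 10% of probes began at 3.09 to 3.24 times background in spheroids, 3.92 to 4.72 times in adherent mouse 2 and 3.82 to 3.96 times in adherent mouse 1. Replicate 1 of adherent mouse 2 stood apart from its fellows (correlation over tested genes 0.975 and 0.982, against 0.994 between the other 2). The header of the deposited table gives those other 2 arrays the same name, so they are called a and b. All 4 basal markers (Krt5, Krt14, Trp63 and Itga6) were detected on every replicate array, while Col1a1 and Pdgfra of the fibroblast list and Cdh5 of the endothelial list were undetected on all 9. Other fibroblast, muscle and endothelial markers, and leukocyte markers, were detected at dim levels. Col1a2 was detected on all 9 arrays. On spheroid, adherent mouse 2 and adherent mouse 1 arrays in turn, Des was detected on 1, 0 and 3. In that order Kdr was detected on 3, 3 and 2, and Pecam1 on 2, 2 and 3. Csf1r was detected on 2, 1 and 3 and Cd3e on 0, 3 and 1. Col3a1, Dcn, Myh11 and Ptprc were detected on some arrays, but not on all 3 of any culture. The summed linear signal of the fibroblast and muscle list was 152 to 184 in spheroids, 161 to 173 in adherent mouse 2 and 160 to 168 in adherent mouse 1. That of the endothelial list was 70.3 to 76.5 in spheroids, 79.5 to 92.8 in adherent mouse 2 and 73.1 to 84.8 in adherent mouse 1. That of the leukocyte list was 60.9 to 90.5 in spheroids, 68.3 to 86.5 in adherent mouse 2 and 67.7 to 94.8 in adherent mouse 1.

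**Figure D1:**
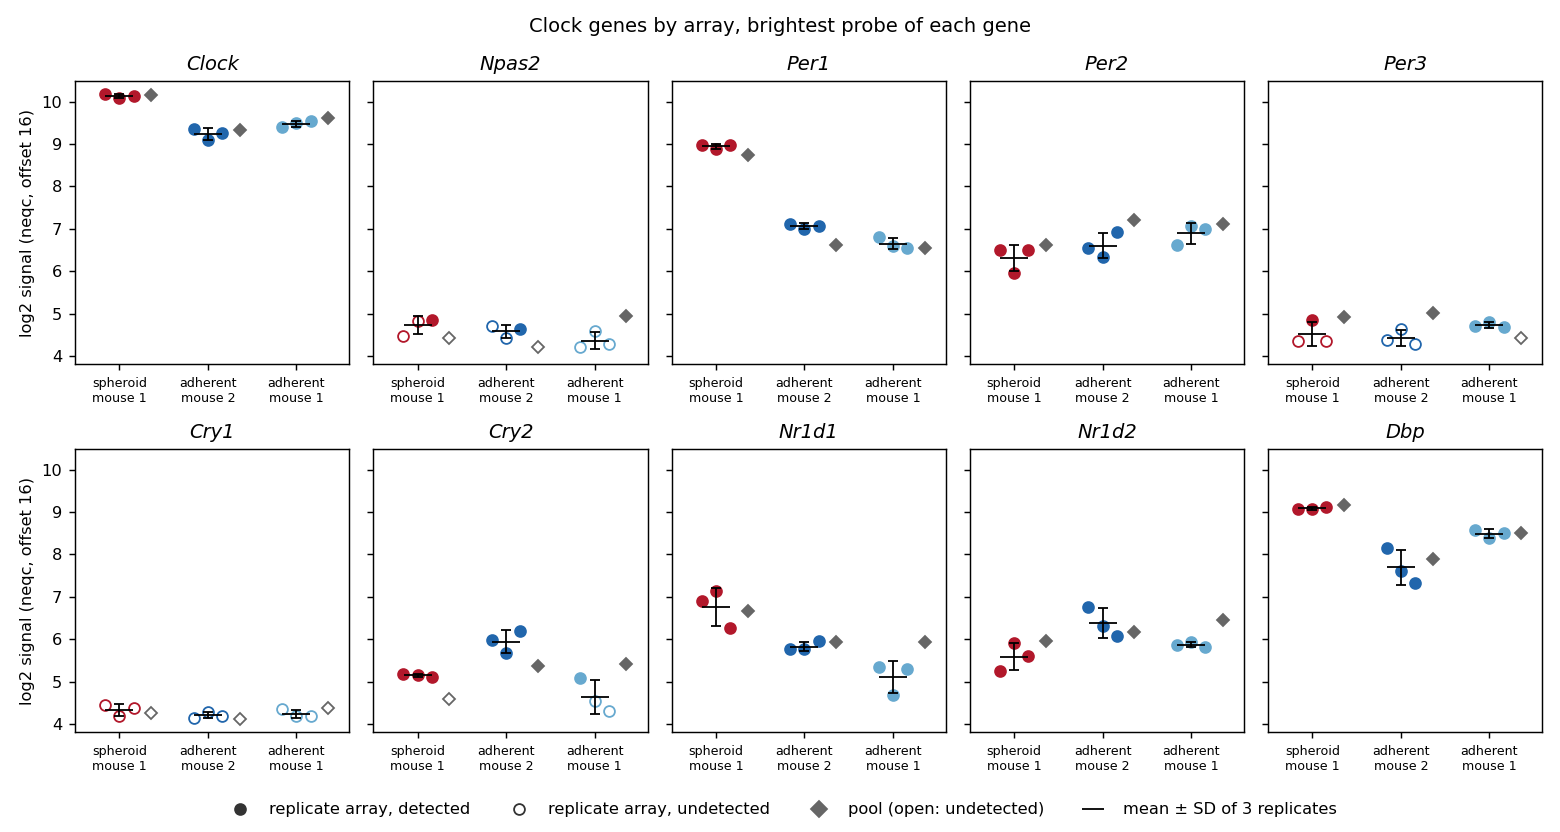
Log2 signal (vertical axis, neqc scale with an offset of 16) of the brightest probe of each of the 10 clock genes in spheroid mouse 1, adherent mouse 2 and adherent mouse 1. Circles are replicate arrays, open where undetected, diamonds are pools, and bars are the mean ± SD of 3 replicates. The spheroid circles of Clock, Per1, Nr1d1 and Dbp lie above all 6 adherent ones, and Npas2, Per3 and Cry1 lie near the bottom of the scale.

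Against the average of both adherent cultures, 2 of the 8 tested clock genes rose in spheroids, Per1 and Nr1d1, and 0 fell. Among all tested genes 26.5% were called, 13.1% higher and 13.4% lower, so 2 of 8 is close to that share. By the adjusted p alone 5 of 8 passed, 4 higher and 1 lower, against 63.7% of all genes, and at a fold of at least 1.5 there were 4, against 45.9% of all genes. At an unadjusted p under 0.05 in limma, 4 were higher and 2 lower, where 30.7% of all genes were higher and 36% lower. The median log2 difference of the 8 was 0.35, against -0.06 over all tested genes. Every spheroid array lay above every adherent array for 4 members, Clock, Per1, Nr1d1 and Dbp, and below for 0, where 25% and 28.6% of all genes did so.

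Clock, the activator of the loop, measured 10.18, 10.08 and 10.12 in spheroids, 9.36, 9.10 and 9.26 in adherent mouse 2, and 9.40, 9.50 and 9.54 in adherent mouse 1. Spheroid arrays were all above adherent ones with no overlap, and the groups were tight. The difference against both adherent cultures was 0.77 ± 0.08 (1.70-fold, limma adjusted p = 2.91e-06), under the fold threshold, so Clock was not called. It was 0.89 against adherent mouse 2 (1.04 and called with cyclic loess) and 0.65 against adherent mouse 1. Scaling each array to its median instead of quantile normalization gave 0.26, on a scale where the median of all genes stood at -0.35. A second Clock probe gave 0.64 ± 0.23 (limma adjusted p = 0.0277 over all probes), also under the fold threshold, and the remaining probe was undetected on all 9 arrays.

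Npas2, the relative that can stand in for CLOCK, was detected on 1 of 3 spheroid arrays, 1 of 3 from adherent mouse 2 and 0 of 3 from adherent mouse 1, and was not tested. Its values were 4.48, 4.84 and 4.86 in spheroids, 4.71, 4.42 and 4.63 in adherent mouse 2, and 4.21, 4.59 and 4.28 in adherent mouse 1. These ranges overlapped and sat near background.

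Per1, a repressor of the loop, had the largest spheroid difference of the clock genes tested. It measured 8.98, 8.88 and 8.98 in spheroids, 7.13, 6.99 and 7.08 in adherent mouse 2, and 6.80, 6.60 and 6.55 in adherent mouse 1. The lowest spheroid array stood well clear of the highest adherent one. Per1 rose by 2.09 ± 0.11 in spheroids over both adherent cultures (4.25-fold, limma adjusted p = 1.75e-09), a change larger in size than that of 92.8% of tested genes. It was called against each culture, at 1.88 against adherent mouse 2 (limma adjusted p = 3.03e-08) and 2.30 against adherent mouse 1 (limma adjusted p = 3.74e-09). These contrasts share the spheroid arrays. Without background correction the rise was 1.38 and still called. The pooled RNA, which was not in the fit, gave 8.75 in spheroids, 6.62 in adherent mouse 2 and 6.55 in adherent mouse 1.

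The second Per1 probe also had no overlap between spheroid and adherent arrays. It read 7.61, 7.60 and 7.48 in spheroids, 5.68, 5.93 and 6.02 in adherent mouse 2, and 5.70, 5.35 and 5.47 in adherent mouse 1. It was called at 1.87 ± 0.15 (limma adjusted p = 1.1e-07 over all probes, of which 23.9% were called). The remaining probe, annotated to Per1 through a cDNA clone rather than the RefSeq transcript, was undetected on all 9 arrays.

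Per2 encodes a repressor that partners PER1 and was not called in any spheroid comparison. Its brightest probe measured 6.50, 5.97 and 6.50 in spheroids, 6.55, 6.34 and 6.92 in adherent mouse 2, and 6.62, 7.06 and 7.01 in adherent mouse 1. Spheroid and adherent mouse 2 arrays overlapped, whereas every adherent mouse 1 array was above the spheroids. The difference against both adherent cultures was -0.43 ± 0.18 (95% confidence interval -0.82 to -0.03, limma adjusted p = 0.0547). Against adherent mouse 2 it was -0.28 (limma adjusted p = 0.264), and against adherent mouse 1 it was -0.57 (limma adjusted p = 0.031, under the fold threshold). The other passing Per2 probe gave 0.03 ± 0.19 against both adherent cultures (limma adjusted p = 0.913 over all probes). It gave -0.39 against adherent mouse 1 (limma adjusted p = 0.152) and 0.44 against adherent mouse 2 (limma adjusted p = 0.101). The 2 probes thus shared a direction against adherent mouse 1 and differed in direction against adherent mouse 2. The faintest Per2 probe was detected on 1 array of adherent mouse 2 only.

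**Figure D2:**
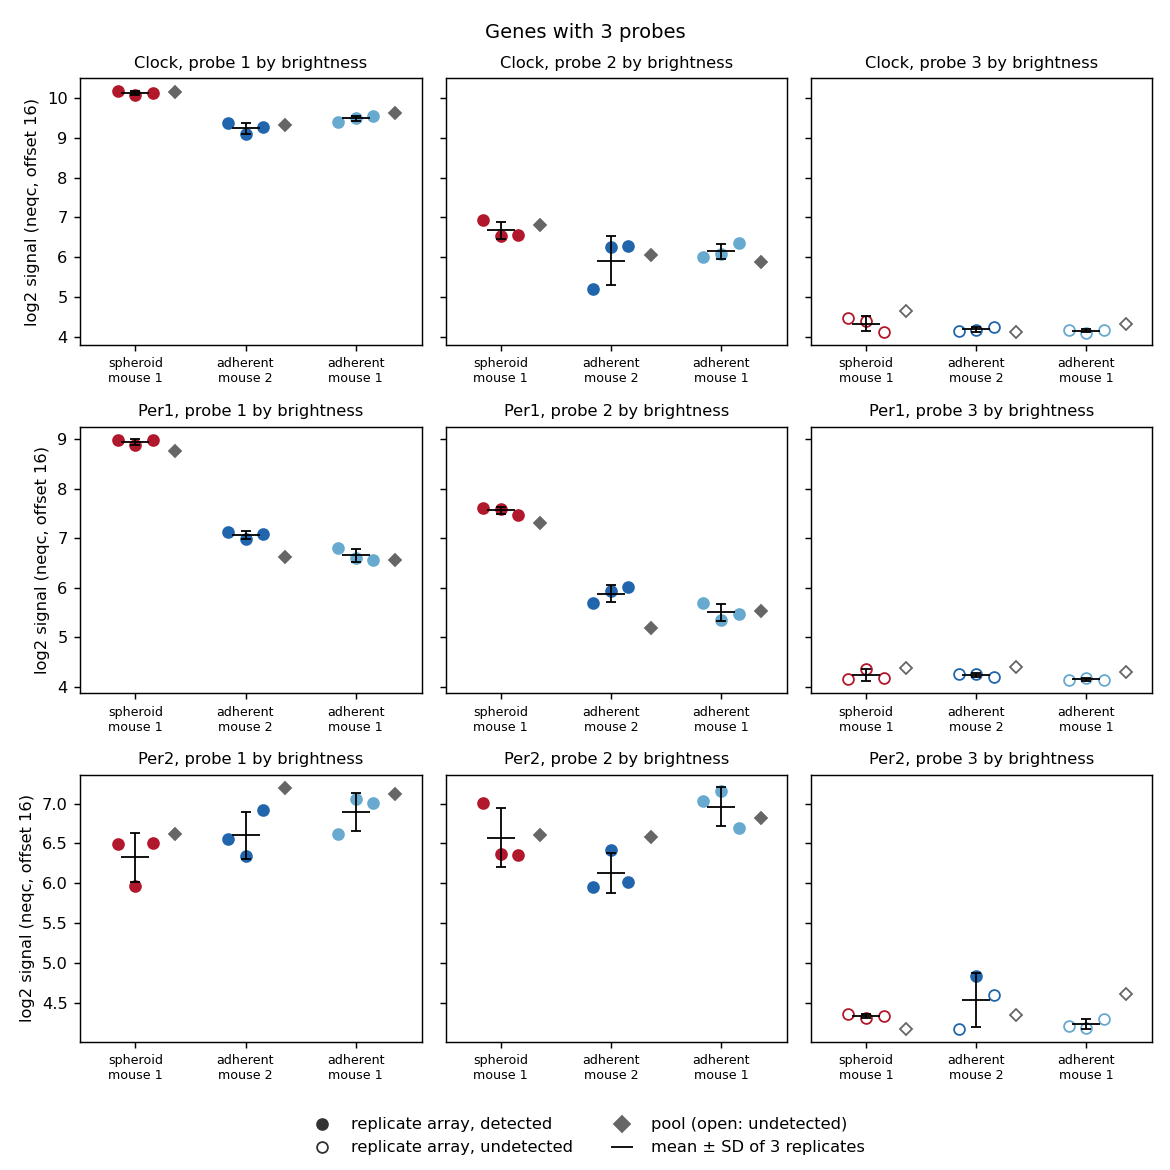
Log2 signal (vertical axis, neqc scale with an offset of 16) of each of the 3 probes of Clock, Per1 and Per2, ordered by brightness, with symbols as in the plot of all clock genes. The first 2 Per1 probes separate spheroids from all adherent arrays, the first 2 Per2 probes do not, and the faintest Clock and Per1 probes are open circles throughout.

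Per3, another period gene, was close to background. It measured 4.37, 4.86 and 4.36 in spheroids, 4.39, 4.65 and 4.28 in adherent mouse 2, and 4.72, 4.81 and 4.68 in adherent mouse 1. It was detected on 1, 0 and 3 of those arrays, and passed the filter through adherent mouse 1. The spheroid difference was -0.06 ± 0.17 (95% confidence interval -0.43 to 0.31, limma adjusted p = 0.777). Its sign turned under some alternatives, so no direction is given. A second Per3 probe was detected on 1 array of adherent mouse 1.

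The cryptochromes Cry1 and Cry2 encode the partners that carry PER proteins into repression of CLOCK and BMAL1. The only Cry1 probe was undetected on all 9 replicate arrays, with values of 4.18 to 4.45 in spheroids, 4.15 to 4.28 in adherent mouse 2 and 4.19 to 4.35 in adherent mouse 1, so a difference was not detectable here. Cry2 was detected on 3 spheroid, 3 adherent mouse 2 and 1 adherent mouse 1 arrays. It measured 5.19, 5.15 and 5.12 in spheroids, 5.97, 5.67 and 6.19 in adherent mouse 2, and 5.09, 4.54 and 4.30 in adherent mouse 1. Spheroid replicates therefore lay between the adherent cultures without overlap, though the lower gap was narrow (5.12 against 5.09). The pools did not keep this order, at 4.58 (undetected) in spheroids, 5.37 in adherent mouse 2 and 5.42 in adherent mouse 1. Against both adherent cultures together the replicate difference was -0.14 ± 0.19 (limma adjusted p = 0.535). It was made of -0.79 against adherent mouse 2 (limma adjusted p = 0.00722) and 0.51 against adherent mouse 1 (limma adjusted p = 0.0645). The second Cry2 probe, annotated to a cDNA clone, was detected on 1 spheroid and 2 adherent mouse 2 arrays.

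Nr1d1 encodes REV-ERB alpha, the nuclear receptor that represses Arntl, and its transcript is among the direct targets of CLOCK and BMAL1. It measured 6.90, 7.14 and 6.27 in spheroids, 5.76, 5.76 and 5.95 in adherent mouse 2, and 5.35, 4.68 and 5.30 in adherent mouse 1. The lowest spheroid array was above the highest adherent one, though spheroid replicates were spread. Adherent mouse 1 lay near background, where the array at 4.68 had a deposited detection p-value of 0.0426. The size of the difference against that culture thus rests in part on dim values. Nr1d1 rose by 1.30 ± 0.21 over both adherent cultures (2.46-fold, limma adjusted p = 0.000104). It was called against adherent mouse 1 at 1.66 (limma adjusted p = 4.91e-05), but not against adherent mouse 2 at 0.94 (limma adjusted p = 0.00431), where the fold was under 2 except when spheroid replicate 3 (1.19) or adherent mouse 2 array b (1.01) was left out. Against both adherent cultures the call depended on the scale, since the difference was 0.48 without background correction, 0.86 with an offset of 50, 0.96 with median scaling, 0.57 in the authors' normalized values and 0.73 between the pools, each in the same direction and under 2-fold. The limma adjusted p stayed between 7.46e-05 and 0.0017 in the 4 of these that were tested. The call against adherent mouse 1 was also lost without background correction (0.58) and in the authors' values (0.69).

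Nr1d2 encodes REV-ERB beta, a relative with the same target sites, and was not called. It measured 5.26, 5.91 and 5.61 in spheroids, 6.77, 6.31 and 6.08 in adherent mouse 2, and 5.86, 5.93 and 5.81 in adherent mouse 1. All spheroid arrays were below adherent mouse 2, and they overlapped with adherent mouse 1. The difference against both was -0.54 ± 0.19 (limma adjusted p = 0.0221, under the fold threshold), with -0.80 against adherent mouse 2 (limma adjusted p = 0.00591) and -0.28 against adherent mouse 1 (limma adjusted p = 0.285). Its second probe was undetected on all 9 arrays.

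Dbp encodes the PAR-domain factor that acts on D-box elements and is a classical output of the loop. It measured 9.06, 9.07 and 9.12 in spheroids, 8.15, 7.60 and 7.32 in adherent mouse 2, and 8.58, 8.38 and 8.51 in adherent mouse 1. The 3 spheroid arrays were nearly level and above all adherent ones, and adherent mouse 2 was the lowest and most spread. The difference of 0.99 ± 0.15 (1.99-fold, limma adjusted p = 5.56e-05) was just under the fold threshold over both adherent cultures. Leaving out replicate 1 of adherent mouse 2 brought it to 1.11 and a call, and leaving out spheroid replicate 1 (1.003), spheroid replicate 2 (1.001) or adherent mouse 1 replicate 1 (1.015) also did. Cyclic loess gave 1.12 and a call, and median scaling 0.51 and none. Against adherent mouse 2 Dbp rose by 1.39 (2.62-fold, limma adjusted p = 1.1e-05), a call lost at 0.79 under median scaling. Against adherent mouse 1, the culture from the same animal, it was 0.59 (limma adjusted p = 0.00913), under the fold threshold.

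**Figure D3:**
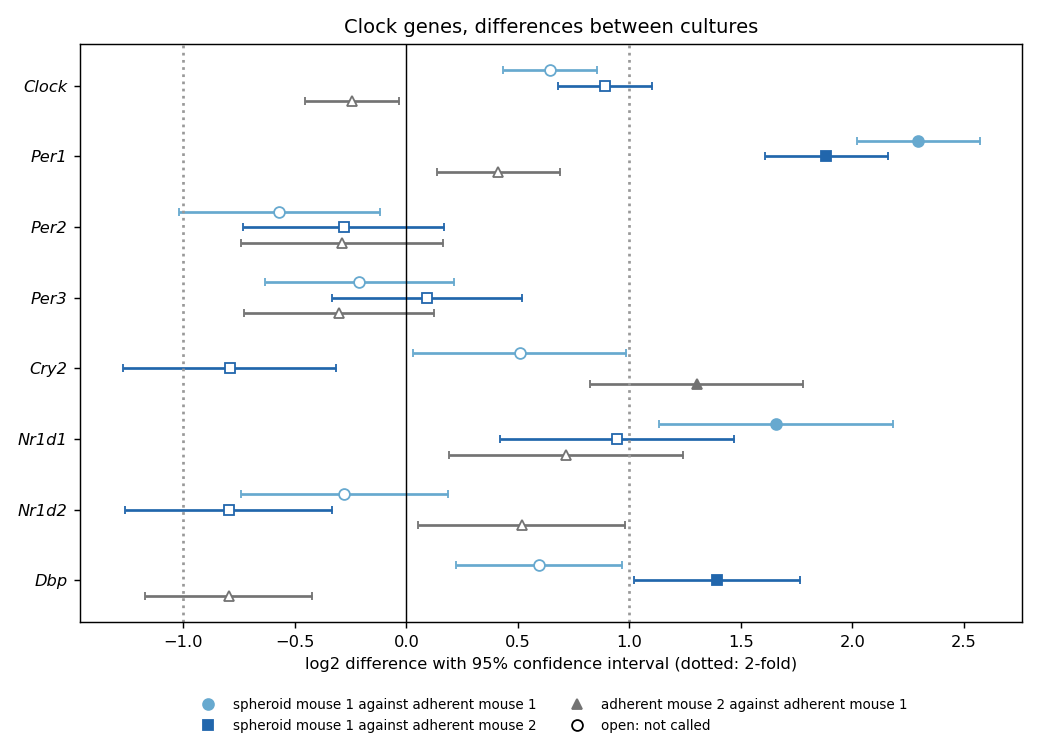
Log2 differences (horizontal axis) of the 8 tested clock genes with 95% confidence intervals from limma, for spheroid against adherent mouse 1, spheroid against adherent mouse 2, and adherent mouse 2 against adherent mouse 1. Filled symbols are called genes and dotted lines mark a 2-fold change. Per1 lies beyond 2-fold in both spheroid comparisons (2.30 and 1.88), Nr1d1 and Dbp in 1 each, and Cry2 (1.30) only between the adherent cultures.

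Taken one adherent culture at a time, 2 members rose against adherent mouse 1, Per1 and Nr1d1, where 27.6% of all genes were called, 13.4% higher and 14.1% lower. Another 2 rose against adherent mouse 2, Per1 and Dbp, where 26.8% were called, 13.2% higher and 13.6% lower. No member was called lower at 2-fold in either comparison, except that with median scaling Nr1d2 (-1.12) and Cry2 (-1.005) were, against adherent mouse 2. By the adjusted p alone 5 members passed against adherent mouse 1, 4 higher and 1 lower (58.8% of all genes passed), and 6 against adherent mouse 2, 4 higher and 2 lower (60% of all genes). At a fold of at least 1.5 there were 4 against adherent mouse 1, 4 higher and 0 lower (46.6% of all genes), and 6 against adherent mouse 2, 4 higher and 2 lower (46.3% of all genes). At an unadjusted p under 0.05 limma gave 5 higher and 1 lower against adherent mouse 1, where 28.2% of all genes were higher and 34.3% lower. Against adherent mouse 2 it gave 4 higher and 2 lower, where 29.7% of all genes were higher and 33.9% lower.

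Between the adherent cultures, which differ in the animal, 1 of the 8 tested members was called, a single gene, against 2.46% of all genes (1.41% higher and 1.05% lower). By the adjusted p alone there were 3 members, against 13.4% of all genes, and at a fold of at least 1.5 there were 2, against 7.83%. Cry2 was 1.30 ± 0.22 higher in adherent mouse 2 than in adherent mouse 1 (limma adjusted p = 0.0021), but 2 of the 3 adherent mouse 1 arrays did not detect it (deposited detection p-values 0.0872 and 0.509), so the size of this difference rests on values at background. The Cry2 pools did not show it, at 5.37 in adherent mouse 2 and 5.42 in adherent mouse 1. The difference was 0.35 without background correction, 0.69 with an offset of 50 and 0.42 in the authors' values, each under 2-fold. Dbp differed by -0.80 ± 0.17 (limma adjusted p = 0.00926), lower in adherent mouse 2, and Per1 by 0.41 ± 0.13 (limma adjusted p = 0.0494), higher there, neither by 2-fold. The second Per1 probe gave 0.37 (limma adjusted p = 0.194 over all probes). Without replicate 1 of adherent mouse 2 the Dbp difference was -1.03 and called. The difference was -0.24 for Clock, 0.71 for Nr1d1, 0.52 for Nr1d2, -0.29 for Per2 and -0.30 for Per3, with limma adjusted p between 0.0703 for Nr1d1 and 0.401 for Per2. The other passing Per2 probe gave -0.83 (limma adjusted p = 0.03 over all probes, under the fold threshold).

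The other factors of the core loop gave 1 called gene of 8 tested, from a list of 11 of which 9 had a probe. Among all tested genes 26.5% were called, 13.1% higher and 13.4% lower, so 1 of 8 is not above that share. Bhlhe40, a basic helix-loop-helix repressor of E-box transcription, rose by 1.69 ± 0.15 in spheroids over both adherent cultures (3.23-fold, limma adjusted p = 4.22e-07). It averaged 10.37 in spheroids, 8.77 in adherent mouse 2 and 8.59 in adherent mouse 1. Arntl, whose product BMAL1 is the partner of CLOCK and whose promoter Rev-erb represses, gave 0.33 ± 0.14 (limma adjusted p = 0.0469) and turned to -0.02 with median scaling. It averaged 6.84 in spheroids, 6.24 in adherent mouse 2 and 6.77 in adherent mouse 1.

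Of the ROR receptors, which activate where Rev-erb represses, Rora averaged 5.38 in spheroids, 4.50 in adherent mouse 2 and 4.46 in adherent mouse 1 and was not called. It was detected on 3 spheroid, 0 adherent mouse 2 and 1 adherent mouse 1 arrays, so it passed the filter through spheroids and its adherent values lay at background. Rorb, detected on 3, 1 and 1 of those arrays, averaged 4.72 in spheroids, 4.76 in adherent mouse 2 and 4.48 in adherent mouse 1 and was not called. The PAR-domain relatives of Dbp were not called, with Tef at -0.67 ± 0.16 (limma adjusted p = 0.00256, but -1.12 and called lower with median scaling) and Hlf at 0.12 (limma adjusted p = 0.634). Ciart, a repressor of CLOCK and BMAL1, gave -0.38 ± 0.13 (limma adjusted p = 0.0178), and Arntl2, a relative of Arntl, gave 0.22 (limma adjusted p = 0.236). Arntl2 and Hlf were also below 0 with median scaling, at -0.13 and -0.004. The median of the 8 was 0.17, against -0.06 over all genes.

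Among the kinases, ligases and other modifiers of clock proteins, 0 of 12 tested genes rose and 3 fell, from a list of 17 of which 15 had a probe. With 26.5% of all tested genes called, 13.1% higher and 13.4% lower, 3 of 12 is close to the share called. Timeless fell by 2.76 on the log2 scale (limma adjusted p = 1.62e-08) and Tipin fell by 2.63 (limma adjusted p = 3.73e-11). Both are best known as partners at the replication fork. Wdr5, a subunit of histone methyltransferase complexes, fell by 1.39 (limma adjusted p = 3.14e-06), a call lost without background correction (-0.83) and in the authors' values (-0.95). Other passing probes differed in size, at -0.43 and -0.54 for Timeless and -0.28 and -1.19 for Tipin, so the size of these falls differed between probes. The cycling markers Top2a and Mcm5, 2 of 4 with a probe, moved the same way, with a summed linear signal of 493 to 529 in spheroids, 4552 to 4994 in adherent mouse 2 and 5300 to 5454 in adherent mouse 1. Their part in the falls was not tested.

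The rhythmic output list, genes that cycle in many tissues, had 4 of 9 tested genes higher and 1 lower, from a list of 10. Of all tested genes 13.1% were called higher and 13.4% lower. Tsc22d3, which encodes the leucine zipper protein GILZ, rose by 4.57 on the log2 scale, Klf9 (a Krüppel-like factor) by 3.09 and Usp2 (a deubiquitinase of clock proteins) by 2.14. Pdk4, a kinase that restrains pyruvate oxidation, was undetected in both adherent cultures and was at least 3.85-fold higher in spheroids, a call lost without background correction and in the authors' values. Since it passed the filter through spheroids alone, its place among the 4 is not independent of its rise. Tspan4, a tetraspanin, fell by 2.25, though its other passing probe gave 0.29 and the call was lost without background correction (-0.87). The median was 0.40, and limma adjusted p of the 5 called genes was 6.99e-07 or lower.

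Glucocorticoid-induced genes gave 7 of 10 higher and 0 lower in spheroids over both adherent cultures, where 13.1% of all tested genes were higher and 13.4% lower. This list, like the other gene lists here, was written with earlier results of these data known. Its excess over that share is therefore not an independent result. Fkbp5, a co-chaperone of steroid receptors, rose by 5.43 (limma adjusted p = 9.32e-13), and Dusp1, a phosphatase of MAP kinases, by 4.84 (limma adjusted p = 7.48e-13). Sult1a1, a sulfotransferase, was undetected in both adherent cultures and was at least 22.4-fold higher in spheroids. Since it passed the filter through spheroids alone, its place among the 7 is not independent of its rise. The median of the 10 was 2.72, against -0.06 over all genes and 0.35 for the clock genes. Tsc22d3 and Klf9 stand in this list and in the rhythmic output list.

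Immediate early genes of cAMP and serum signalling gave 5 of 9 tested genes higher and 0 lower over both adherent cultures, from a list of 12. The shares of all tested genes were 13.1% higher and 13.4% lower. Dusp1 is shared with the glucocorticoid list. Fos, a subunit of AP-1, rose by 3.24 (limma adjusted p = 9.55e-09, detected on 1 of 3 adherent mouse 2 arrays), Sik1, a salt-inducible kinase, by 1.87 (limma adjusted p = 8.54e-06, 0.97 and not called without background correction) and Junb, another AP-1 subunit, by 1.64 (limma adjusted p = 3.07e-08). Egr1 rose by 1.60 over both, with 2.63 against adherent mouse 2 and 0.56 against adherent mouse 1, where it was not called. It differed by -2.07 between adherent mouse 2 and adherent mouse 1 (limma adjusted p = 2.98e-05). The tested genes not called over both were Atf3 at 0.40, Crem at 0.006, Egr2 at -0.02 and Nr4a2 at -0.78. For Nr4a2 limma adjusted p was 0.00605, with the fall under the fold threshold. Fosb, Nr4a1 and Ier2 did not pass the filter. The median of the 9 was 1.60 over both and 1.48 against adherent mouse 2. Against adherent mouse 1 it was 0.56 with 4 genes called, where the clock median was 0.55. With each scaling and background setting the called counts were 6 to 8 higher for the glucocorticoid list and 4 or 5 higher for the immediate early list. The part of either group of genes in the rise of Per1 was not tested.

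Squamous markers also moved with the spheroid comparison, with 4 of 5 tested genes called higher, where 13.1% of all tested genes were. The summed linear signal of these markers was 21744 to 23060 in spheroids, 6319 to 6864 in adherent mouse 2 and 4834 to 5544 in adherent mouse 1. The remaining one, Ivl, gave -0.56 (limma adjusted p = 0.00292, under the fold threshold). With median scaling 2 of the 5 were called higher and 1 lower (Ivl at -1.06), and Lor (0.977) and Sprr1b (0.984) were not called. Luminal markers, 3 of 5 with a probe, summed to 3124 to 3402 in spheroids, 6867 to 7703 in adherent mouse 2 and 6169 to 6533 in adherent mouse 1. Basal markers had 0 of 4 called, although Trp63 gave -0.56 (limma adjusted p = 4.35e-05, under the fold threshold) and was called lower with median scaling (-1.06). Their summed signal overlapped between cultures, at 33411 to 35189 in spheroids, 30246 to 35060 in adherent mouse 2 and 34204 to 34479 in adherent mouse 1. The part of the squamous, luminal and cycling markers in the rises of Per1 and Nr1d1 was not tested.

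**Figure D4:**
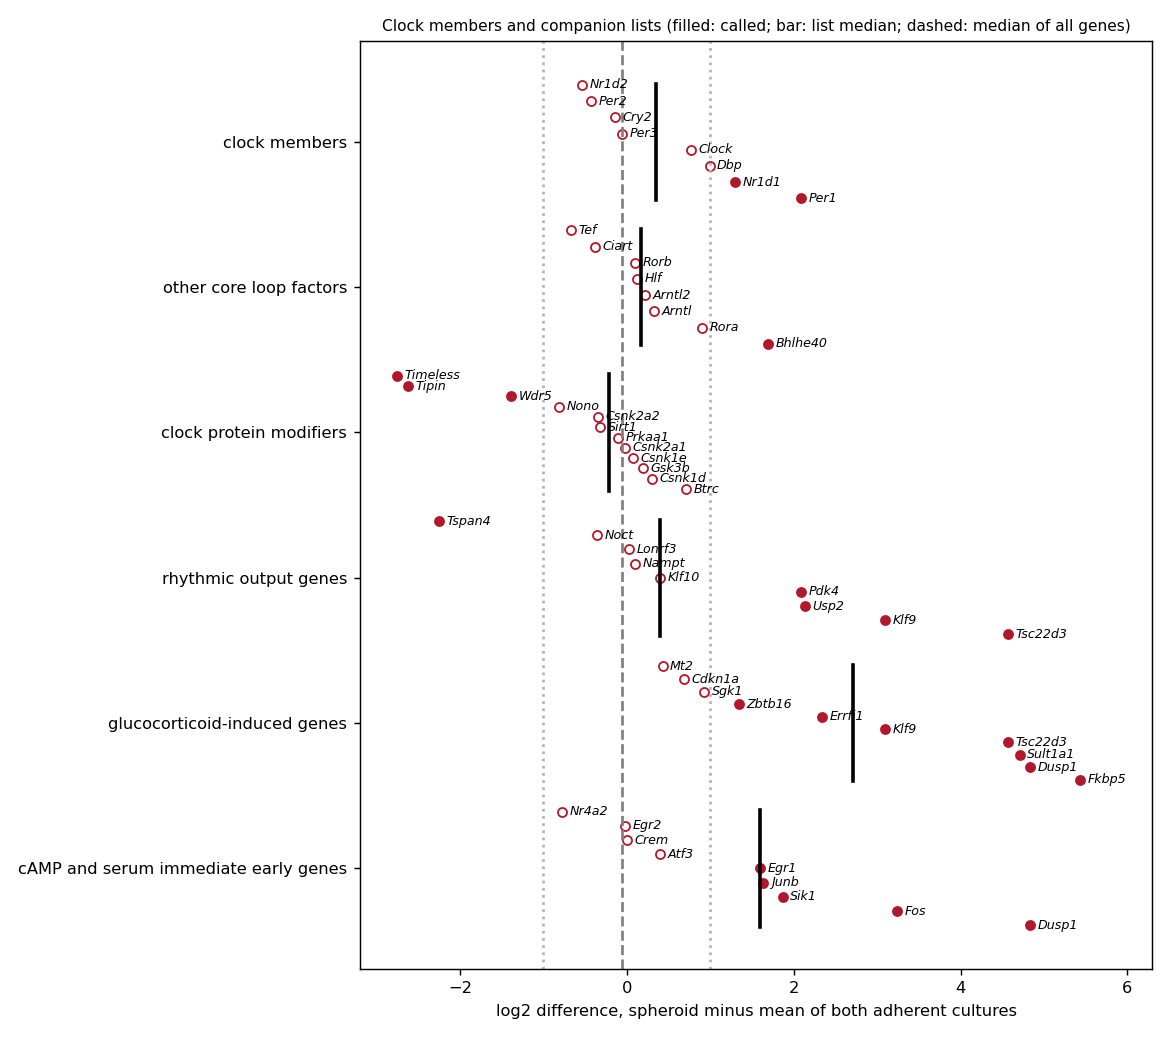
Log2 difference of spheroid over the mean of both adherent cultures (horizontal axis) for each tested gene of the clock set and 5 companion lists. Filled circles are called genes, the vertical bar is the list's median, the dashed line is the median of all tested genes (-0.06) and dotted lines mark a 2-fold change. In this contrast the clock genes (median 0.35) sit nearer to the line of all genes than the glucocorticoid-induced (2.72) and immediate early genes (1.60). Against adherent mouse 1 alone, which is not plotted, these medians were 0.55, 2.85 and 0.56 in turn. The clock set and the lists were chosen with earlier results of these data known.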

How the data were processed

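Mean bead intensity per probe for 12 arrays, not normalized and beside a detection p-value, was deposited in one table, per the file headers. Normalized intensity values of the same arrays were also deposited, by a method not given in the sources used here, nor are the scanner software and slide positions. Per the labels' protocols, a miRNeasy kit gave the RNA and the cRNA carried biotin.

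From the first table, neqc of limma 3.58.1 in R 4.3.3 removed a background inferred from the detection p-values, with an offset of 16, and quantile-normalized all 12 arrays. Gene names came from the platform annotation (1 symbol for 34773 probes, several for 18 and none here for 10344). The filter kept 18950 probes, of which the brightest stood for each of 10112 genes. The linear model held 1 mean for each culture and used the 9 replicates (limma, eBayes with trend), without the pools, which share their RNA. Calls combined adjusted p (threshold 0.05, Benjamini-Hochberg over all genes) with a 2-fold change. Folds written "at least" replaced an undetected value by that array's lowest detected signal, unless its own was higher. The number of arrays limits the precision. Code was checked on data with known changes.

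All 10 clock genes and their probes are named, together with tested core loop factors and, of the other lists, up to 4 called genes per direction in order of size. Egr1 was added since its call depended on the adherent culture, and the uncalled immediate early genes were added to complete that list. The members and lists were chosen with earlier results of these data known. Replicate numbers were not used to pair the arrays. Deviations of same-numbered spheroid and adherent mouse 1 arrays correlated at 0.03, -0.04 and 0.07. In the authors' values such correlations ran from -0.255 to 0.114 across the pairs of cultures. With 3 replicates per culture these correlations cannot show whether the numbers carry a pairing. Promoter windows came from RefSeq. Alternatives covered background, normalization, filter, probe choice, variance model, thresholds and arrays left out.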

Additional observations from a re-analysis of the deposited data

Results flagged for a closer look

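For 3 of the 8 tested clock genes the adherent cultures differed from each other by limma's test at an adjusted p under 0.05, which is also a test that the spheroid differences against each of them are unequal. Cry2 was 1.30 higher in adherent mouse 2 than in adherent mouse 1 on the log2 scale, with 2 of the 3 adherent mouse 1 arrays below detection. Dbp differed by -0.80, lower in adherent mouse 2 than in adherent mouse 1. Per1 differed by 0.41, higher in adherent mouse 2 than in adherent mouse 1. Over all probes limma's adjusted p was 0.0635 for that Per1 probe and 0.194 for the second one, at 0.37. The Per1 pools differed by 0.07. Among all tested genes 13.4% passed an adjusted p of 0.05 between the adherent cultures.

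Pooled RNA, which was in no comparison, gave signal above the detection threshold in 2 of the 19 cases where a clock gene probe was undetected on all 3 replicates of a culture. Npas2 read 4.94 on the pool of adherent mouse 1 (deposited detection p-value 0.0226), where its highest replicate read 4.59. Per3 read 5.02 on the pool of adherent mouse 2 (deposited detection p-value 0.00586), where its highest replicate read 4.65.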

How the results depend on the processing

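Of the single-gene differences under alternatives, 651 kept their direction and side of the threshold, 13 lost a call, 11 gained one, 15 turned direction and 6 moved. Some alternatives, such as leaving out an array of a culture outside the comparison, could not change the difference itself. The 651 are therefore not independent checks. Per1 was called higher against both adherent cultures under every alternative with a test, between 1.38 and 2.18. The members called against both adherent cultures numbered 1 without background correction, with an offset of 50, with median scaling and in the authors' normalized values, 5 at adjusted p alone and 4 at a fold of at least 1.5. Against adherent mouse 1 they numbered 1 without background correction and in the authors' values, 5 at adjusted p alone and 4 at 1.5-fold. Against adherent mouse 2 they numbered 6 at adjusted p alone and 6 at 1.5-fold. Between the adherent cultures they numbered 0 without background correction, with an offset of 50, in the authors' values and with detection on all 9 arrays (which leaves Cry2 untested), 3 at adjusted p alone and 2 at 1.5-fold. Leaving out 1 array at a time gave 2 to 3 called members against both, 2 each time against adherent mouse 1, 2 to 3 against adherent mouse 2 and 1 to 2 between the adherent cultures. The second call between the adherent cultures was Dbp without replicate 1 of adherent mouse 2. Nr1d1 was called against adherent mouse 2 without spheroid replicate 3 (1.19) or adherent mouse 2 array b (1.01). Except where the alternative tests fewer genes or arrays, the cause was not tested.

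Directions turned mostly between the pools, which gave Cry2 -0.042, Nr1d1 -0.017, Nr1d2 -0.274, Per2 0.083 and Per3 0.594 between adherent mouse 2 and mouse 1. For spheroids the pools gave Cry2 -0.833 and Per3 0.508 against adherent mouse 1, and Per3 -0.085 against adherent mouse 2 and 0.212 against both. Per2 was 0.082 against adherent mouse 2 as the mean of its probes. Per3 was 0.001 against both in the authors' values, and with 1 array left out ranged over -0.224 to 0.023 against both (above 0 without spheroid replicate 1 or 3) and -0.073 to 0.195 against adherent mouse 2 (below 0 without spheroid replicate 2).

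With the replicate number as a block the fit of spheroid and adherent mouse 1 arrays kept 2 called members. In the authors' values the replicate block left 1 called member against both, 1 against adherent mouse 1 and 0 between the adherent cultures, with Per3 at 0.001. The block could not be fitted to all arrays of the non-normalized table, where 2 columns carry no separate number.

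Over all genes, 2684 were called against both adherent cultures, and 1289 without background correction and 1475 in the authors' values. Between the adherent cultures 249 were called, and 51 without background correction, 102 with an offset of 50 and 63 in the authors' values. With median scaling 883 were higher and 2326 lower against both, where quantile normalization gave 1327 and 1357. A slide or scan-date block was not run, since the files used give neither. Dim signal limits Npas2, Per3 and Cry1 in all cultures and Cry2 and Nr1d1 in adherent mouse 1.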
